A study of Rattus norvegicus with 12 samples.

Results

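The enzymes and transporters that carry glucose through glycolysis and into the citrate cycle were measured as 33 genes of a list, out of 21245 genes or unnamed targets tested on single-colour Agilent arrays of rat transcripts. The list was set by name and not by measured values: probes were matched to each rat symbol through RefSeq transcript accessions, and the brightest probe stood for a gene with several. All 33 genes had a probe, and all 33 lay well above background on all 12 arrays, so none was lost to the filter on dim probes. A pair of blockers of glutamate receptors were given together in the treated cultures: GYKI-52466 at 50 µM, an antagonist of AMPA-type receptors, and MK-801 at 10 µM, a channel blocker of NMDA-type receptors. The 4 groups, with 3 arrays each, were cultures blocked for 26 h, untreated cultures of the 26 h time point, cultures blocked for 9 h and untreated cultures of the 9 h time point. All were primary cultures of hippocampal neurons from Wistar rat embryos at embryonic day 18, after 14 to 15 days in culture, and the replicates came from independent cultures, per the labels. The labels name no vehicle for the untreated cultures and do not say whether the cultures of the later time point were older when harvested.

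Glucose enters a cell through facilitative transporters of the Slc2a family and is trapped by hexokinase. The preparatory steps of glycolysis spend ATP to make triose phosphates, and the payoff steps return ATP and end in pyruvate, which lactate dehydrogenase can turn into lactate. Pyruvate dehydrogenase feeds pyruvate into the citrate cycle in mitochondria, whose dehydrogenases supply electrons to the respiratory chain. In brain tissue neurons and astrocytes share this work, and synaptic transmission is one of the large users of the ATP it yields.

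Levels are given as log2 of the processed spot signal minus the 75th percentile of its array, so that 0 is the signal of that percentile, and they are compared between groups for 1 probe only, never between probes. Between 77.6% and 86.8% of spots on an array lay well above background, and the number of arrays limits the precision. Pairs of arrays of a group correlated at 0.985 to 0.994 across targets. Scan days crossed the groups: the blocked 26 h and untreated 9 h arrays were scanned on day 1, and the untreated 26 h and blocked 9 h arrays on day 2. A difference averaged over both times, or over both treatments, is therefore balanced for scan day, whereas for a blockade difference at 1 time the blockade and the scan day cannot be told apart. Of 15 pan-neuronal markers 14 were measured, and these were above background on every array. All 13 oligodendrocyte lineage markers were above background on every array too, so detection by itself does not bear out the neuronal label. Astrocyte markers were abundant (14 of 15 measured). The summed level of meningeal and fibroblast markers was 15.1 to 19.6 times the array's 75th percentile signal in the arrays of replicate 3, against 2.02 to 3.5 in replicate 1 and 5.72 to 9.20 in replicate 2. Choroid plexus markers summed to 14.7 to 21.1 in replicate 3 and to at most 2.24 in the other arrays. Calls that end without replicate 3 are named below, and the part of these cells in them was not tested. In such mixed cultures fewer cells of a type and less RNA per cell cannot be told apart. The blockade itself was plain in genes whose transcription follows synaptic activity. Of 24 measured genes of that list 19 were lower in blocked cultures averaged over both times, with a median log2 difference of -1.43. The neurotrophin gene Bdnf stood at -2.59 and the neuronal transcription factor gene Npas4 at -4.57. Npas4 was well above background on only 9 arrays, with a mean of -8.37 in blocked 26 h cultures. Its size therefore rests partly on dim signal. Over 24 other settings of processing or samples the Npas4 difference ran from -4.84 to -2.90 log2, always past the threshold.

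Receptor blockade averaged over 26 h and 9 h left no gene of the set past the threshold. Of the 29 genes that were not saturated on every array, 0 were called (limma, Benjamini-Hochberg over all targets, adjusted p below 0.05), against 4.41% of all targets (2.28% higher and 2.13% lower), and 2 had an unadjusted p below 0.05. The averaged log2 differences of the 29 genes ran from -0.37 to 0.28 with a median of -0.06, beside a median of -0.02 over all targets. Among the 29 were 5 genes saturated on some arrays, where the scanner's ceiling understates the level. For 23 of the 24 genes never saturated the 95% interval of the averaged difference lay within a 1.5-fold change in either direction, and the median of the 24 was -0.07. The exception was Hk2, the inducible hexokinase, whose interval reached 0.56 log2 to either side of its difference of -0.37. With the replicate number as a block the count also stood at 0, against 12.8% of all targets.

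**Figure D1:**
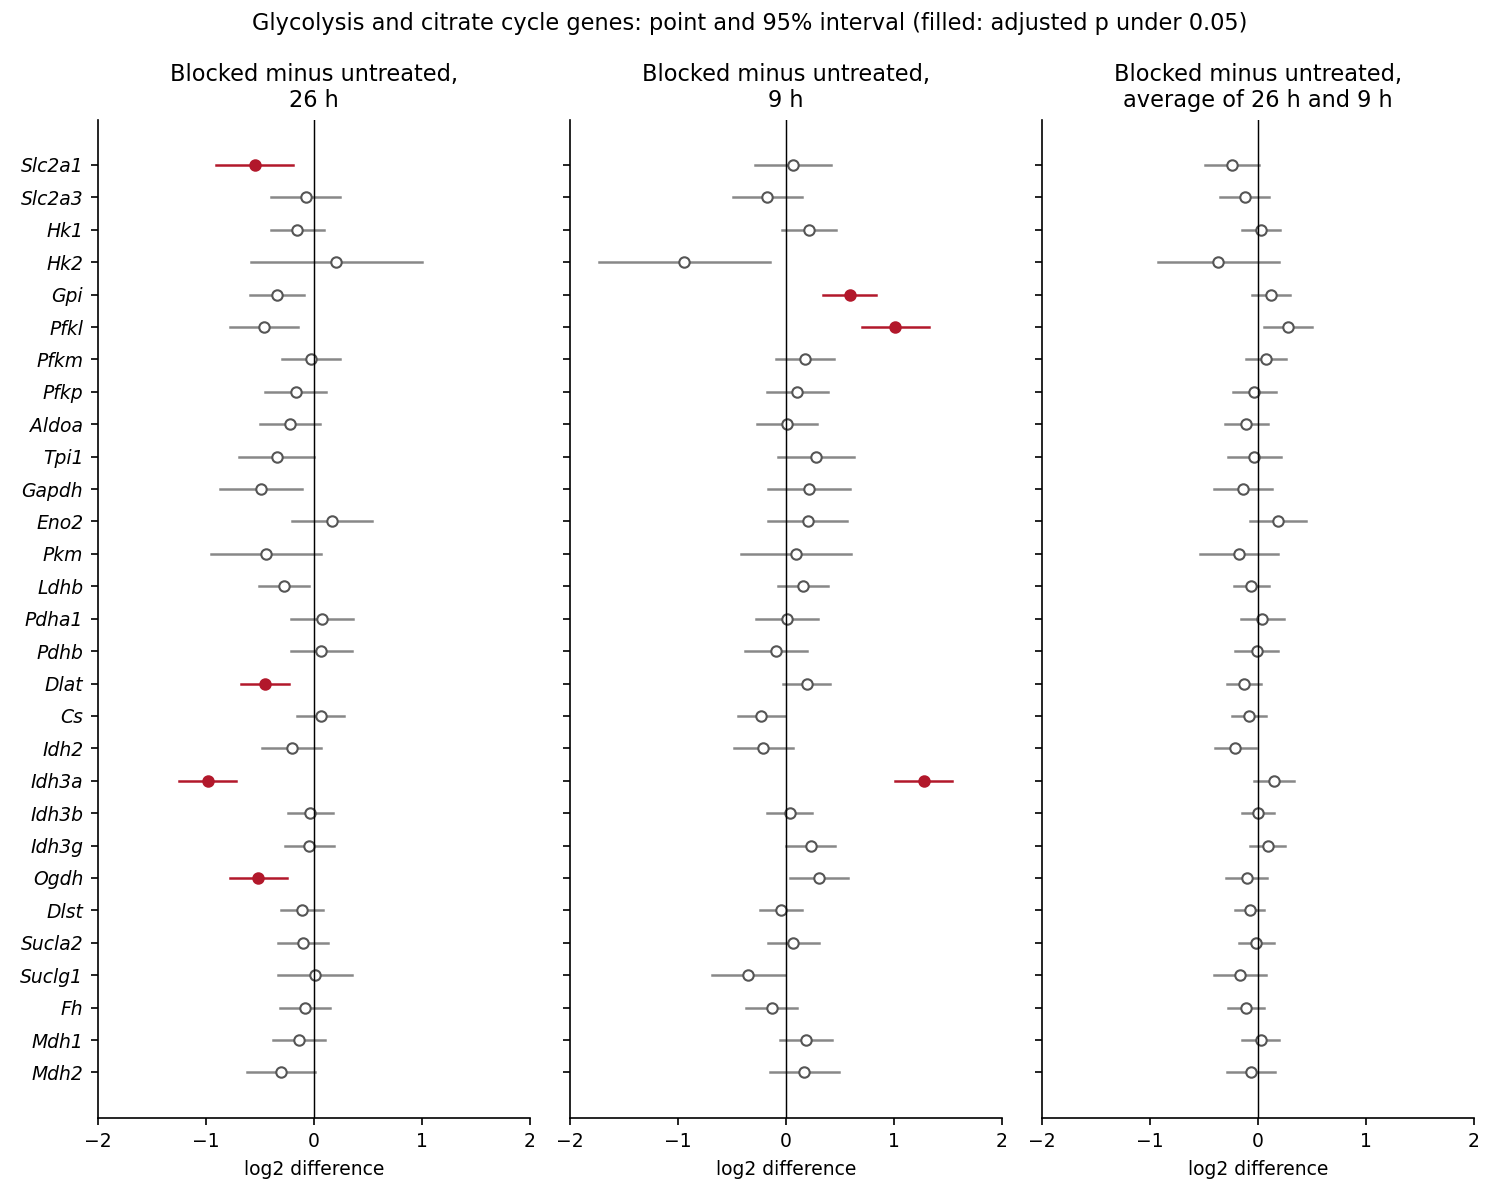
Log2 difference of blocked minus untreated cultures (horizontal axis) for the 29 genes not saturated on every array (vertical axis, in pathway order), at 26 h, at 9 h and averaged, 3 arrays per group. Points are limma estimates, lines their 95% intervals, and filled red marks an adjusted p below 0.05. Filled points lie left of 0 at 26 h (4 genes) and right of 0 at 9 h (3 genes), and the averaged panel holds none.

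The 6 genes with the smallest adjusted p in the averaged comparison show what its values look like. Pfkl, the liver-type subunit of phosphofructokinase, which makes the committed step of glycolysis, had log2 levels of -1.03, -1.25 and -1.05 in blocked 26 h cultures and -0.84, -0.57 and -0.53 in untreated 26 h cultures. At 9 h the Pfkl levels were 0.03, -0.33 and -0.39 in blocked cultures and -1.12, -1.41 and -1.20 in untreated cultures. Blocked arrays were thus the lower ones at 26 h and the higher ones at 9 h, with no overlap at either time. The averaged difference of Pfkl was 0.28 ± 0.10 log2 (SE, adjusted p = 0.181 by limma).

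Idh2, the mitochondrial NADP-dependent isocitrate dehydrogenase, had levels of 1.70, 2.09 and 2.16 in blocked 26 h cultures and 2.08, 2.18 and 2.31 in untreated 26 h cultures. Its levels at 9 h were 1.51, 1.55 and 1.49 in blocked cultures and 1.72, 1.70 and 1.75 in untreated cultures. The blocked arrays overlapped the untreated ones at 26 h and lay below them at 9 h. The averaged difference of Idh2 was -0.21 ± 0.09 log2 (SE, adjusted p = 0.261 by limma).

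Eno2, the enolase of mature neurons, had levels of 0.66, 0.92 and 0.96 in blocked 26 h cultures and 0.83, 0.50 and 0.69 in untreated 26 h cultures. In the 9 h cultures Eno2 stood at 1.17, 0.90 and 1.03 with blockade and at 0.52, 1.16 and 0.82 without it. The groups overlapped at both times, and the averaged difference was 0.19 ± 0.12 log2 (SE, adjusted p = 0.518 by limma). The other genes of the 6 were Slc2a1 at -0.24 (adjusted p = 0.326), Dlat at -0.13 (adjusted p = 0.432) and Idh3a at 0.15 (adjusted p = 0.459), all from the same limma fit, and their arrays are given with the comparisons in which they passed.

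The time points were compared with an average over blocked and untreated cultures. Of the 29 genes 2 were lower at 26 h than at 9 h and 1 was higher (10.3% called). Slc2a1, the glucose transporter of the blood-brain barrier and of glia (GLUT1), was 1.90-fold lower at 26 h, and Hk2 was 2.09-fold lower, while Idh2 was 1.38-fold higher. These 3 of the 29 genes were past the threshold (1 higher and 2 lower), beside 12.6% of all targets (4.86% higher and 7.77% lower). The median of the 29 differences was 0.01, beside -0.02 over all targets. Of the 2 glucose transporters 1 was lower, of the 8 preparatory genes 1 was lower, of the 12 citrate cycle genes 1 was higher, and the 3 payoff genes, Ldhb and the 3 genes of pyruvate dehydrogenase had no call.

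Slc2a1 had levels of 0.31, 0.38 and 0.55 in blocked 26 h cultures and 1.08, 1.02 and 0.79 in untreated 26 h cultures. Its levels at 9 h were 1.77, 1.46 and 1.70 in blocked cultures and 1.74, 1.23 and 1.76 in untreated cultures. All 6 arrays of 26 h lay below all 6 arrays of 9 h. No other of the 29 genes separated in this way, and 3.88% of all targets did. The difference of 26 h minus 9 h was -0.92 ± 0.11 log2 (SE, adjusted p = 0.00109 by limma). Within scan day 1 (blocked 26 h minus untreated 9 h) it was -1.16 ± 0.16 log2 (SE), and within scan day 2 (untreated 26 h minus blocked 9 h) it was -0.68 ± 0.16 log2 (SE). The other transporter, Slc2a3, the neuronal form GLUT3, had levels of -2.93, -3.11 and -3.23 in blocked 26 h cultures, of -2.78, -2.97 and -3.30 in untreated 26 h cultures, of -2.94, -3.03 and -2.88 in blocked 9 h cultures and of -2.89, -2.62 and -2.83 in untreated 9 h cultures. These ranges overlapped, and the Slc2a3 difference of -0.19 ± 0.10 log2 (SE) did not pass (adjusted p = 0.278 by limma).

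Hk2 had levels of -5.88, -5.41 and -4.75 in blocked 26 h cultures and -5.79, -5.83 and -5.04 in untreated 26 h cultures. Its levels at 9 h were -4.92, -5.37 and -4.28 in blocked cultures and -3.69, -4.31 and -3.74 in untreated cultures. The untreated 9 h group had the highest mean, and the blocked 9 h arrays overlapped those of 26 h. The difference of 26 h minus 9 h was -1.06 ± 0.25 log2 (SE, adjusted p = 0.0227 by limma), with -1.43 within day 1 and -0.70 within day 2. This call ended when replicate 3 of blocked 9 h, replicate 2 of untreated 26 h, or replicate 1 or 2 of blocked 26 h was left out, where the adjusted p reached at most 0.0576. Over 24 other settings of processing or samples the Hk2 difference ran from -1.21 to -0.63 log2, so its fold is not a stable size. Hk1, the constitutive hexokinase of brain, did not pass.

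Idh2, whose arrays are given above, was the gene that was higher at 26 h, by 0.47 ± 0.09 log2 (SE, adjusted p = 0.00734 by limma). Its difference was 0.26 within day 1 and 0.67 within day 2, and replicate 1 of the blocked 26 h cultures lay below all 3 untreated 9 h arrays and above the blocked 9 h arrays. Without all arrays of replicate 3 the difference was 0.39 and no longer past the threshold (adjusted p = 0.147). The next genes in order were Idh3g, the gamma subunit of the NAD-dependent isocitrate dehydrogenase, at 0.14 log2 (adjusted p = 0.263), then Slc2a3 and Aldoa, the aldolase of muscle and brain, at -0.16 log2 (adjusted p = 0.302). Idh3g had levels of 3.61, 3.69 and 3.55 in blocked 26 h cultures, 3.83, 3.61 and 3.54 in untreated 26 h cultures, 3.73, 3.56 and 3.54 in blocked 9 h cultures and 3.33, 3.46 and 3.37 in untreated 9 h cultures. Aldoa levels overlapped between the times as well, at 3.47, 3.56 and 3.67 in blocked 26 h cultures, 3.82, 3.69 and 3.85 in untreated 26 h cultures, 3.84, 3.79 and 3.89 in blocked 9 h cultures and 3.56, 4.06 and 3.86 in untreated 9 h cultures.

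**Figure D2:**
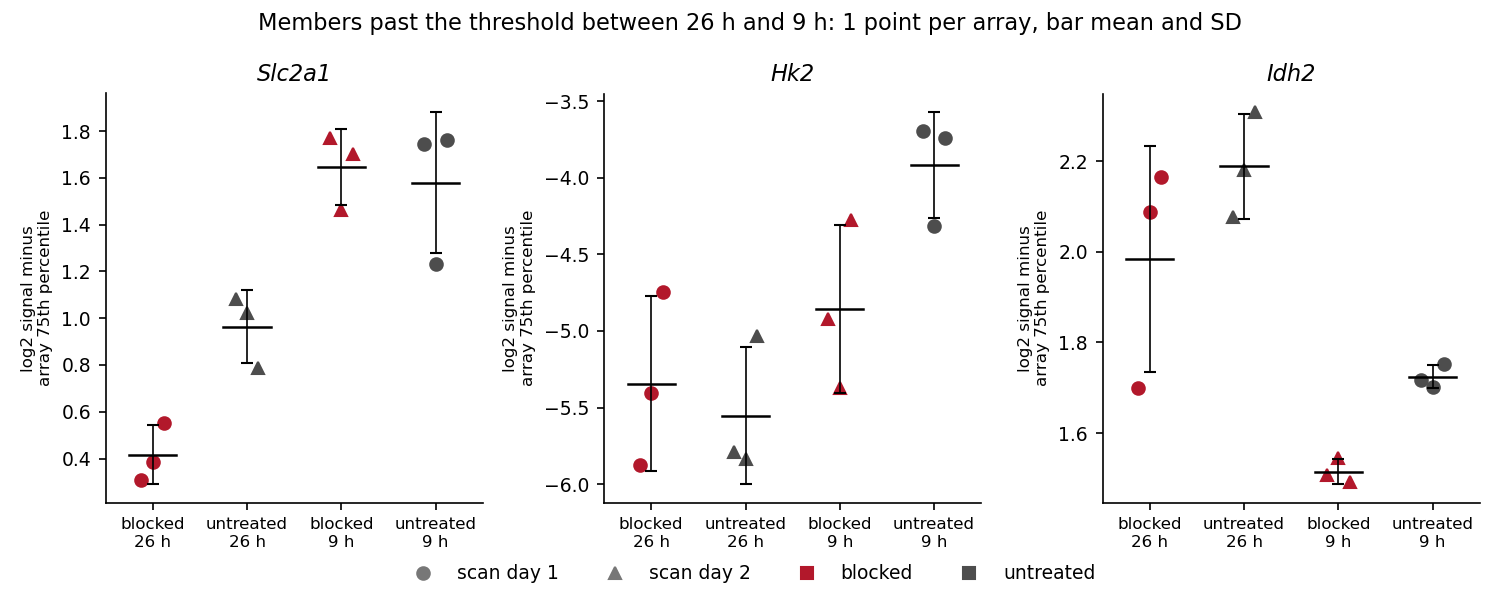
Log2 signal minus the array's 75th percentile (vertical axis) of the 3 genes past the threshold between 26 h and 9 h, by group, with 1 point per array, circles for scan day 1 and triangles for scan day 2, and the mean with its SD (n = 3) in black. All Slc2a1 arrays of 26 h sit below those of 9 h, while Hk2 and Idh2 have ranges that meet.

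**Figure D3:**
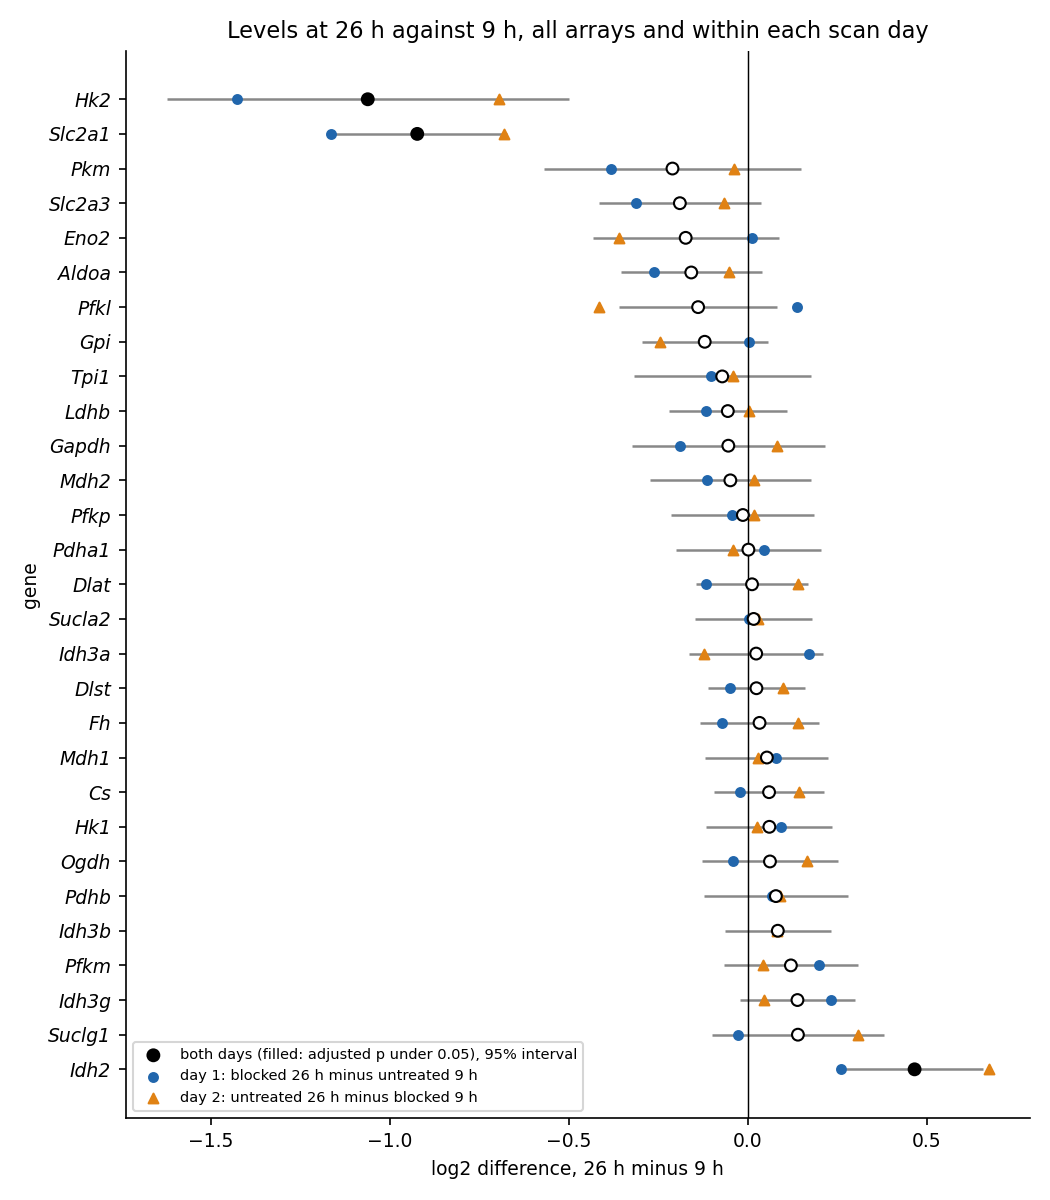
Log2 difference of 26 h minus 9 h (horizontal axis) for the 29 genes not saturated on every array (vertical axis), over both scan days with its 95% interval (black circles, filled for an adjusted p below 0.05), within day 1 (blue circles) and within day 2 (orange triangles). Slc2a1 and Hk2 lie left of 0 and Idh2 right of 0 in both days.

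The bases before the starts of Slc2a1 and Hk2 are shown because these were the genes of the set lower at 26 h than at 9 h. Both are textbook targets of the hypoxia-inducible factor. Of 21 other measured targets of that factor 2 passed in the same comparison, both lower (9.5%, median log2 difference -0.12), beside 12.6% of all targets. Of the 33 genes, 30 matched an entry of the RefSeq promoter table (build GRCr8). Slc2a3, Pgk1 and Idh3a had no match. The windows are the 250 bases before the annotated start, written 5′ to 3′ on the strand of the gene, and capitals mark the core letters of the hypoxia response element, ACGTG or GCGTG, on either strand. They lie at chr5:138002272-138002521 on the plus strand for Slc2a1 and at chr4:116841276-116841525 on the minus strand for Hk2.
Slc2a1: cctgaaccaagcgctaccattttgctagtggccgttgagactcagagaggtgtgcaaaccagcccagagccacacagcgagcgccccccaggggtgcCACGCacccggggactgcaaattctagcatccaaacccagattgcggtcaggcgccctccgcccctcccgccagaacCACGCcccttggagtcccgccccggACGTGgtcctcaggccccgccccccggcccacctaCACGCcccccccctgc
Hk2: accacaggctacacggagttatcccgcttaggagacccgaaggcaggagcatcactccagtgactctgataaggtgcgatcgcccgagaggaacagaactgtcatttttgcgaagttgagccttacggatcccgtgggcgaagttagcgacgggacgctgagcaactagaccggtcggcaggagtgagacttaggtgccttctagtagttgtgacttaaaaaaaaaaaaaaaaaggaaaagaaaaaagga
In Slc2a1 the letters ACGTG began 51 bases before the start, and GCGTG was read on the opposite strand (as CACGC) beginning 153, 76 and 16 bases before it. The Hk2 window held neither form. ACGTG occurred on either strand in 10 of the 30 matched windows (33.3%) and in 16.6% of all 33469 windows of this length, and GCGTG in 15 of 30 (50.0%) and in 25.9%. The palindrome CACGTG, an E box that contains ACGTG, was found in 3 of the 30 windows (Ldha, Pdhb and Ogdh) and in 5.59% of all windows. The cAMP response element TGACGTCA was in the windows of Ldha, Ogdh and Mdh2, 10.0% of the 30 windows and 1.59% of all windows. The motif TCAAGGTCA of estrogen-related receptors, regulators of mitochondrial genes, was in 0 of the 30 windows and in 0.388% of all. These matches describe letters and are no evidence of binding.

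At 26 h the blocked cultures had lower levels of 4 of the 29 genes (13.8%, beside 16.1% of all targets called in either direction). These were 1 of the 2 transporters, 1 of the 3 pyruvate dehydrogenase genes and 2 of the 12 citrate cycle genes. Idh3a, the catalytic alpha subunit of the NAD-dependent isocitrate dehydrogenase, was 1.98-fold lower, Ogdh, the E1 subunit of 2-oxoglutarate dehydrogenase, 1.43-fold lower, Dlat, the E2 subunit of pyruvate dehydrogenase, 1.36-fold lower, and Slc2a1 1.46-fold lower. None of the 29 genes was higher past the threshold by limma, and 8 had an unadjusted p below 0.05 in either direction. The 4 lower genes stood beside 9.18% of all targets called lower, 6.95% called higher and 16.1% called in either direction. The median difference of the 29 genes was -0.15, against -0.05 over all targets. For the 24 genes never saturated it was -0.10. The arrays of both sides did not overlap in 10 of the 29 genes, while 38.1% of all targets behaved so. With the replicate block 8 genes passed, beside 31.2% of all targets, and Pfkl (adjusted p = 0.0314), Gpi (adjusted p = 0.0180), Ldhb (adjusted p = 0.0457) and Mdh2 (adjusted p = 0.0267) joined them, all lower. Without all arrays of replicate 3 none of the 29 passed, and the adjusted p of Idh3a was then 0.0522.

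At 9 h the blocked cultures had higher levels of 3 genes. Idh3a was 2.42-fold higher, Pfkl 2.02-fold higher and Gpi, the isomerase that follows hexokinase, 1.51-fold higher. No gene was lower past the threshold by limma, and 8 had an unadjusted p below 0.05 in either direction. The 3 higher genes stood beside 11.7% of all targets called higher, 9.34% called lower and 21.0% called in either direction. The median difference of the 29 genes was 0.11, against 0.03 over all targets, and for the 24 genes never saturated it was 0.07. The arrays of both sides did not overlap in 8 of the 29 genes, while 34.7% of all targets behaved so. With the replicate block 5 genes passed, beside 35.5% of all targets. The 2 that joined were Hk2, lower by 0.94 log2 in blocked cultures (adjusted p = 0.0901 without and 0.0103 with the block), and Ogdh, higher by 0.31 log2 (adjusted p = 0.101 without and 0.0276 with the block).

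Idh3a had levels of -0.41, -0.51 and -0.57 in blocked 26 h cultures and 0.22, 0.63 and 0.61 in untreated 26 h cultures. Its levels at 9 h were 0.70, 0.61 and 0.51 in blocked cultures and -0.62, -0.67 and -0.71 in untreated cultures. The 6 arrays of scan day 1 were all below 0 and the 6 of scan day 2 all above it. The blockade difference was -0.98 ± 0.12 log2 at 26 h (SE, adjusted p = 0.00128) and 1.28 ± 0.12 log2 at 9 h (SE, adjusted p = 3.69e-04), both from limma. Within a scan day, blocked and untreated arrays, which then also differ in time, were 0.17 ± 0.12 log2 apart on day 1 and 0.12 ± 0.12 log2 apart on day 2 (SE). The other subunits of the enzyme, Idh3b and Idh3g, did not pass at either time.

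Gpi had levels of 3.17, 3.30 and 3.13 in blocked 26 h cultures and 3.62, 3.56 and 3.46 in untreated 26 h cultures. Its levels at 9 h were 3.97, 3.82 and 3.57 in blocked cultures and 3.18, 3.26 and 3.14 in untreated cultures. Here too every array of day 1 lay below every array of day 2. The blockade difference of Gpi was -0.34 ± 0.11 log2 at 26 h (SE, adjusted p = 0.0629 by limma) and 0.59 ± 0.11 log2 at 9 h (SE, adjusted p = 0.00550 by limma). For Pfkl it was -0.46 ± 0.14 log2 at 26 h (SE, adjusted p = 0.0501 by limma) and 1.02 ± 0.14 log2 at 9 h (SE, adjusted p = 0.00149 by limma). The fainter of the 2 Pfkl probes gave -0.54 at 26 h and 1.19 at 9 h.

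Ogdh had levels of 0.63, 0.87 and 0.88 in blocked 26 h cultures and 1.11, 1.38 and 1.43 in untreated 26 h cultures. Its levels at 9 h were 1.17, 1.04 and 1.21 in blocked cultures and 0.70, 0.88 and 0.93 in untreated cultures. Blocked arrays were all lower at 26 h and all higher at 9 h. The difference of Ogdh was -0.51 ± 0.12 log2 at 26 h (SE, adjusted p = 0.0191 by limma). Dlat had levels of -0.02, 0.08 and -0.06 in blocked 26 h cultures and 0.44, 0.56 and 0.35 in untreated 26 h cultures. At 9 h Dlat stood at 0.22, 0.44 and 0.26 in blocked cultures and at 0.05, 0.22 and 0.08 in untreated cultures. Its groups separated at 26 h and met at 9 h, with a difference of -0.45 ± 0.10 log2 at 26 h (SE, adjusted p = 0.0153 by limma). Both calls ended without replicate 2 of untreated 26 h or replicate 1 of blocked 26 h. The Ogdh call also ended without replicate 3 of untreated 26 h, and the Dlat call without replicate 3 of blocked 26 h. The 26 h difference of Slc2a1 was -0.55 ± 0.16 log2 (SE, adjusted p = 0.0423 by limma), and it stayed past the threshold in 9 of 24 other settings of processing or samples.

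Between the times, 23 of the 29 genes had blockade differences of opposite sign (79.3%), 19 of them higher at 9 h and lower at 26 h. Over all 21245 targets 67.4% had opposite signs (14323 targets), 8032 of them higher at 9 h and lower at 26 h. The 19 genes included all 5 that were saturated on some arrays, where the scanner's ceiling understates the level. The difference between both blockade differences was past the threshold for 5 of the 29 genes, all with the lower value at 26 h, beside 28.6% of all targets (15.9% in that direction and 12.6% in the other). With the replicate block 10 genes passed, beside 44.6%. The arrays of the 2 scan days did not overlap for Idh3a, Pfkl, Gpi and Ogdh, 4 of the 29 genes, with day 1 the lower day in each. Over all targets 10.9% separated by scan day in this way. The summed level of the neuronal markers at 26 h was 66.8 to 71.9 in blocked arrays and 79.7 to 87.1 in untreated arrays, while at 9 h it was 78.1 to 80.5 in blocked arrays and 59.3 to 86.5 in untreated arrays. Astrocyte markers summed to 70.3 to 87.7 in blocked 26 h arrays and 77.8 to 107.0 in untreated 26 h arrays. In each of these marker lists 1 gene was saturated on every array, and bright genes weigh most in a sum. Gene by gene, the 14 neuronal markers had a median blockade difference of -0.006 log2 at 26 h. Of them 1 was called higher and 0 lower, so the lower sum was not a fall shared by the markers. The part of these summed levels in the results was not tested.

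**Figure D4:**
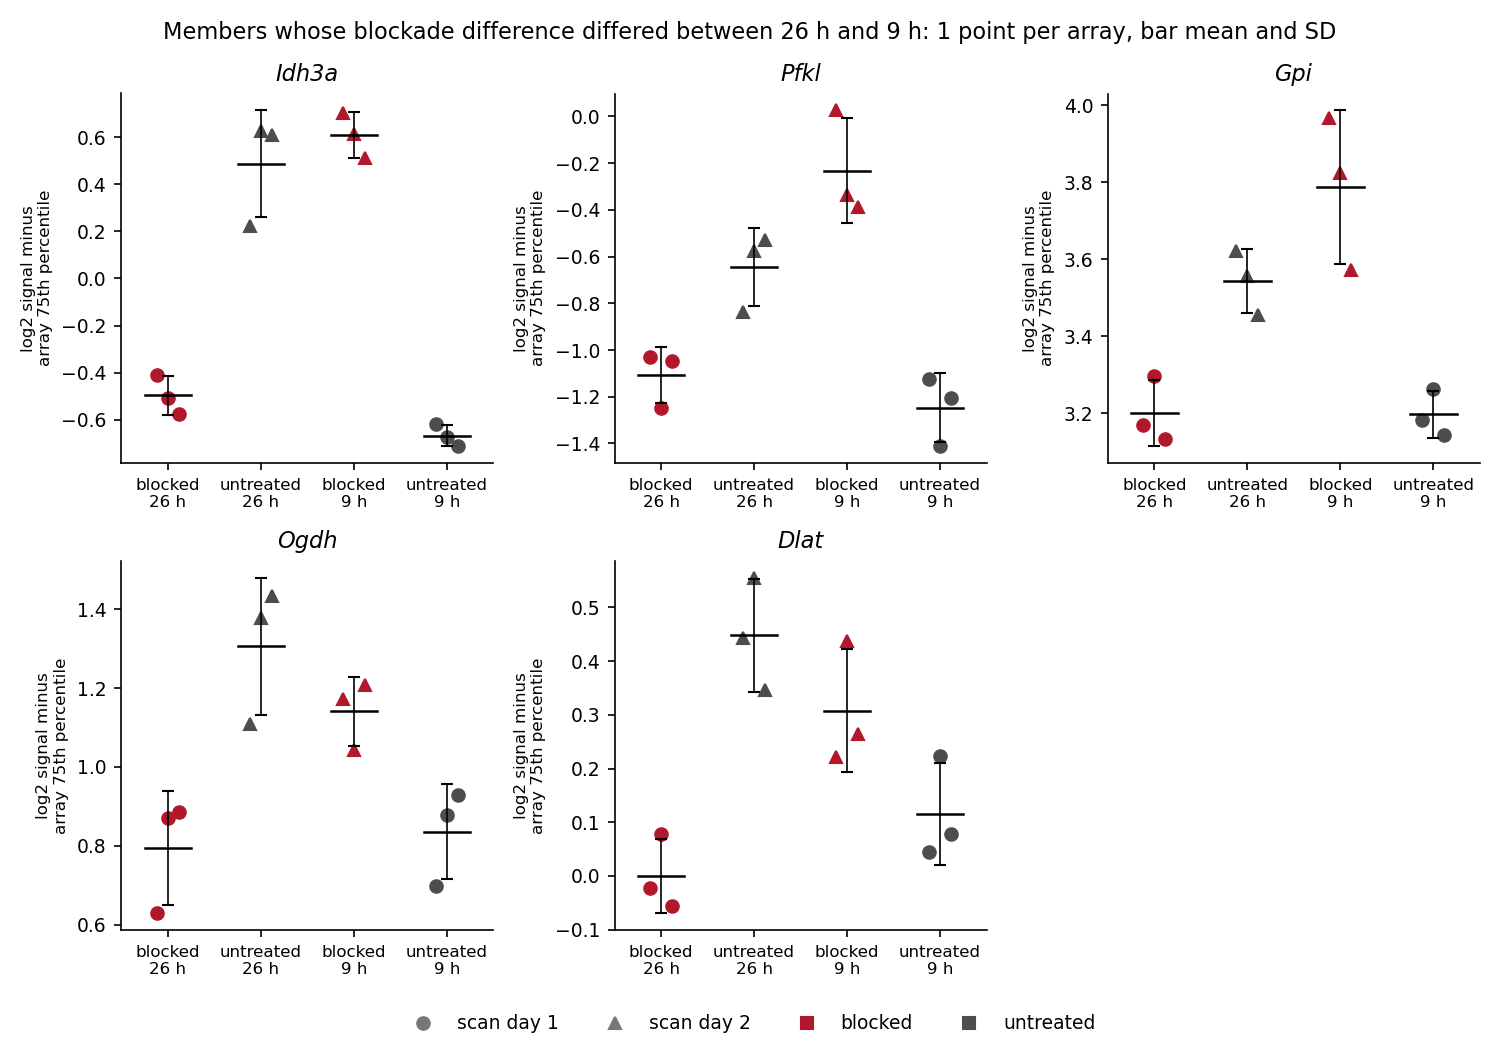
Log2 signal minus the array's 75th percentile (vertical axis) of the 5 genes whose blockade difference was not alike at 26 h and 9 h, by group, with 1 point per array, circles for scan day 1 and triangles for scan day 2, and the mean with its SD (n = 3) in black. In Idh3a, Pfkl, Gpi and Ogdh all circles lie below all triangles.

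Several payoff enzymes of glycolysis were too bright for the scanner. Pgk1, which makes the first ATP of the payoff steps, Pgam1, the mutase after it, Eno1, the ubiquitous enolase, and Ldha, the lactate dehydrogenase subunit of glycolytic tissues, were saturated on all 12 arrays. For these 4 genes a level exists only as a lower bound in every group, and no fold is given. Gapdh, which couples triose phosphate oxidation to phosphate uptake, was saturated on 8 arrays, among them all 3 of the blocked 9 h group and 2 of the untreated 9 h group, so that its difference at 9 h has no bound. Tpi1, the triose phosphate isomerase, was saturated on 5 arrays, Hk1 and Pfkp, the platelet-type phosphofructokinase, on 2 each, and Ldhb, the heart-type lactate dehydrogenase subunit, on 1. The other 24 genes were saturated on none. Another, fainter Tpi1 probe that was never saturated gave -0.57 at 26 h and 0.40 at 9 h, where the brighter one gave -0.34 and 0.28.

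**Figure D5:**
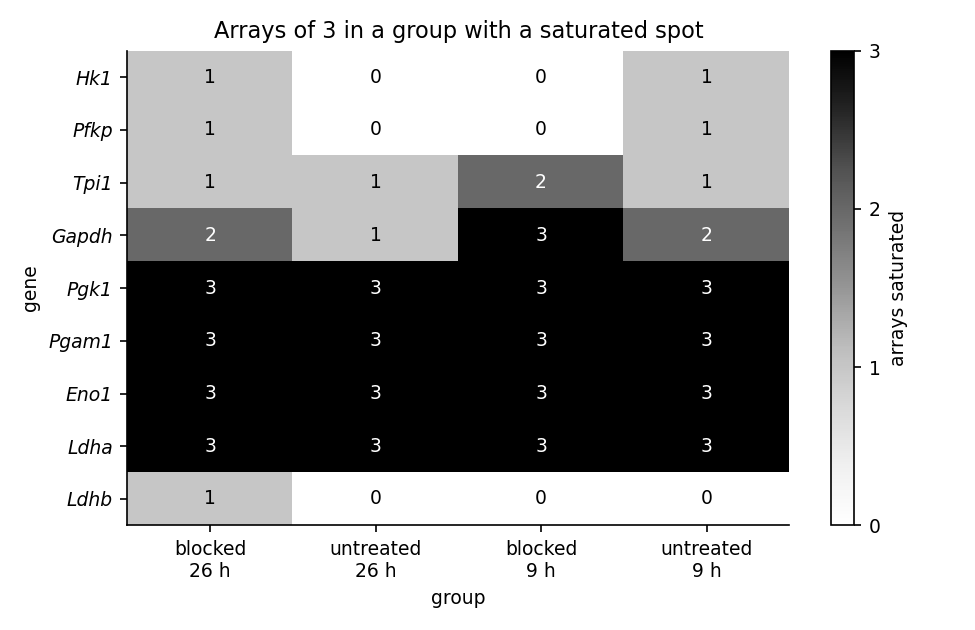
Number of arrays, of 3 in each group (columns), on which the spot of a gene (rows) was saturated, for the 9 genes saturated on at least 1 array. Pgk1, Pgam1, Eno1 and Ldha were saturated on every array, and Gapdh on all 3 arrays of the blocked 9 h group.

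The other genes of pyruvate dehydrogenase and the citrate cycle had no blockade call at 26 h or 9 h, apart from Mdh2, a malate dehydrogenase, with the replicate block at 26 h. Pdha1, the E1 alpha subunit, differed by 0.07 log2 at 26 h and by 0.01 log2 at 9 h, but its other, fainter probe gave 0.50 and -0.43, so that the probes of this gene disagree. Cs, the citrate synthase that opens the cycle, had 9 h arrays that did not overlap, and its difference of -0.23 ± 0.10 log2 in blocked against untreated cultures (SE) did not pass (adjusted p = 0.129 by limma). Suclg1, a subunit of succinyl-CoA ligase, gave -0.35 ± 0.15 log2 at 9 h (SE, adjusted p = 0.141 by limma). In the averaged comparison the 12 citrate cycle genes had a median difference of -0.07, the 3 genes of pyruvate dehydrogenase -0.01 and the 2 transporters -0.18, none of them saturated on any array. Of the payoff genes never saturated, Eno2 gave 0.19 ± 0.12 log2 and Pkm, the pyruvate kinase of muscle and brain, -0.17 ± 0.16 log2 (SE).

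Neighbouring pathways had few calls when the blockade was averaged over both times, against 4.41% of all targets. Among the other isoenzymes, Fbp2, the muscle-type fructose bisphosphatase that runs the phosphofructokinase step backward, was lower (-0.79 ± 0.16 log2, SE, adjusted p = 0.0204 by limma). Fbp2 averaged -2.83 in blocked and -2.38 in untreated 26 h cultures, and -2.95 in blocked and -1.83 in untreated 9 h cultures. Of the 24 genes of glycolytic control 1 passed: Pdk2, a kinase that switches pyruvate dehydrogenase off, was higher by 0.40 ± 0.09 log2 (SE, adjusted p = 0.0420 by limma). Its means were 1.55 in blocked and 1.77 in untreated 26 h cultures, and 1.76 in blocked and 0.74 in untreated 9 h cultures. The Fbp2 call ended without replicate 2 of untreated 26 h, without replicate 1 or 3 of blocked 26 h, without all arrays of replicate 3 and with the deposited log2 values, where the adjusted p reached at most 0.0593. The Pdk2 call was kept in 10 of 24 other settings. It ended in 11 of the 12 that left out a single array and without all arrays of replicate 3. None passed among 20 other citrate cycle and anaplerotic enzymes, 19 genes of pyruvate, lactate and shuttle transport, 10 of the pentose phosphate pathway, 15 of glycogen metabolism, 48 of the respiratory chain and ATP synthase (9 of them saturated on every array), and 21 other targets of the hypoxia-inducible factor. Of these 133 genes 11 had an unadjusted p below 0.05 by limma.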

How the data were processed

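RNA of each culture (200 ng) was labelled with Cy3 and hybridised to 1 array, per the labels. The deposited scanner files come from Agilent Feature Extraction 10.5.1.1, per the file headers. Their processed signal is an intensity corrected for background on each array and not scaled across arrays. A table of log2 values was deposited too, which differ from log2 of that intensity by 1 constant per array. The file headers' flags, stored as a score of 0 or 1, mark outlier, saturated and well-above-background spots.

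Control spots were left out, 3751 outlier spot values were dropped, and spots of a probe were averaged. Log2 of the processed signal minus the array's 75th percentile was used, and a probe was kept if well above background on all arrays of 1 group. Probes were named through RefSeq transcripts (18004 matched, 12363 did not). All 12 arrays entered 1 fit with limma 3.58.1 under R 4.3.3, with a mean per group, tests two-sided, Benjamini-Hochberg over 21245 targets, threshold 0.05. The fit was tested on simulated data.

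Same-numbered arrays of a time correlated at 0.177 to 0.657 after removal of group means (6 pairs, all over 0.1). Across times they correlated at -0.04 to 0.68. The main fit did not pair the arrays, and the replicate block is given only as an alternative, for the blockade as for time. Arrays were printed for genes past the threshold and for those with the smallest adjusted p: 6 for the average, 4 for 26 h, for 9 h and for their difference, and 6 for time. Of other lists, genes past the threshold in the average were named, at most 4 each. Members, lists and tests were chosen with earlier results of these data known. The 24 alternatives cover background, scaling, filter, probe, outlier flags, deposited values, slide and replicate block, and samples left out. Coordinates of the array's older build were not used. A result of 1 other list is not reported here.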

Additional observations from a re-analysis of the deposited data

Results flagged for a closer look

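For 5 genes of the set the blockade difference itself differed between 26 h and 9 h, tested as the difference of both differences in the fit over all targets (limma, Benjamini-Hochberg), where 28.6% of all targets passed. The value, the blockade difference at 26 h minus that at 9 h, was -2.26 ± 0.17 log2 for Idh3a (SE, adjusted p = 1.35e-04), -1.48 ± 0.20 for Pfkl (adjusted p = 7.13e-04) and -0.93 ± 0.16 for Gpi (adjusted p = 0.00207). For Ogdh it was -0.82 ± 0.17 (SE, adjusted p = 0.00576) and for Dlat -0.64 ± 0.14 (SE, adjusted p = 0.00747). Without all arrays of replicate 3 the calls of Ogdh (adjusted p = 0.0640 by limma) and Dlat (adjusted p = 0.0782 by limma) ended. By construction this contrast also sets all arrays of scan day 1 against all arrays of scan day 2, so a blockade effect that depends on time and a shift between scan days cannot be told apart.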

How the results depend on the processing

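All 24 alternatives left the averaged blockade comparison at 0 genes. At 9 h the count of 3 was 6 with normexp background and quantile normalization and 5 with the replicate block, and 3 to 5 when arrays were left out one at a time. At 26 h the count of 4 was 2 with the deposited log2 values, 8 with the replicate block, 0 without all arrays of replicate 3, and 1 to 6 when arrays were left out one at a time. It was 1 without replicate 2 of untreated 26 h or replicate 1 of blocked 26 h, and 2 without replicate 3 of either 26 h group. The count of 5 for the difference between both times was 8 with quantile normalization, 10 with normexp background, 10 with the replicate block, 3 without all arrays of replicate 3, and 5 to 8 when arrays were left out one at a time, with 8 reached without replicate 2 of untreated 9 h. For 26 h against 9 h the count of 3 stayed at 3 with the replicate block and ranged from 2 to 3 when arrays were left out one at a time. Among named genes and medians no value reversed, 63 values lost the threshold, 6 gained it, 842 kept their call, and the median of the set in the difference between both times moved to -0.12 under quantile normalization, against -0.27. The cause was not tested in these cases, apart from the fewer arrays of the settings that leave samples out. Dropping spots with uneven background rings as well was an alternative chosen after seeing the data. Saturation limits the brightest probes, for which neither direction nor size can be read.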

Other observations

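Other regulators of glucose use, named here after their values were seen, moved between groups. Txnip, a brake on glucose uptake through GLUT1, was 2.76-fold higher in blocked than in untreated cultures at 26 h (log2 difference 1.46 ± 0.37, SE, adjusted p = 0.0264 by limma), with means of -0.31 in blocked and -1.77 in untreated cultures. The call held in 20 of 24 alternatives and ended without replicate 2 or 3 of untreated 26 h and without replicate 1 or 2 of blocked 26 h, where the adjusted p reached at most 0.0965. Txnip means at 9 h were -0.41 in blocked and -1.04 in untreated cultures, and it did not pass there or in the average over both times. Of the 24 measured genes of its list, glycolytic control, 7 passed at 26 h (5 higher and 2 lower), beside 16.1% of all targets. At 1 time the blockade and the scan day cannot be told apart. At 26 h against 9 h, averaged over blocked and untreated cultures, Pygl, the liver-type glycogen phosphorylase, was 4.34-fold lower (log2 difference -2.12 ± 0.15, SE, adjusted p = 7.31e-05 by limma). The mitochondrial biogenesis factor gene Nrf1 was 1.92-fold lower in the same comparison (-0.94 ± 0.11 log2, SE, adjusted p = 9.04e-04 by limma). Both calls held in all 24 alternatives. Ppargc1a, a coactivator of mitochondrial biogenesis on the same list, went the other way, higher by 0.46 ± 0.11 log2 (SE, adjusted p = 0.0248 by limma). The Ppargc1a call held in 16 of 24 alternatives. It ended in 7 of the 12 that left out a single array and without all arrays of replicate 3. Of the 24 measured genes of that list, glycolytic control, 5 passed between 26 h and 9 h (2 higher and 3 lower). Of 15 measured genes of glycogen metabolism 3 passed in this comparison, 2 higher and 1 lower, and of 20 other citrate cycle and anaplerotic enzymes 3 passed, all higher, beside 12.6% of all targets. Of 10 genes of the pentose phosphate pathway 2 passed. The share was under 12.6% in the other neighbouring lists. There 2 of 21 other isoenzymes, 2 of 21 other targets of the hypoxia-inducible factor, 2 of 48 respiratory chain and ATP synthase genes and 0 of 19 transport genes passed.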
